A study of Mus musculus with 2 samples.

Results

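The 10 genes described here are 7 chemokines that myeloid cells make (Ccl2, Ccl7, Ccl8, Ccl17, Ccl22, Ccl24 and Cxcl13) and 3 chemokine receptors that monocytes and T cells carry (Ccr2, Ccr4 and Ccr8). They were taken by symbol from the 32285 genes of the deposited matrices, and all 10 were present. Their unique molecular identifiers (UMIs, 1 per captured transcript molecule) were counted in barcodes that had 500 or more genes and no more than 10% of UMIs from the mitochondrial genome, and summed over cell types gated on markers that include none of the 10.

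Both libraries are droplet single-cell RNA libraries read from the 3' end of transcripts. They hold cells of lung tumours from bone marrow chimeric mice whose lethally irradiated hosts were KrasLSL-G12D/+Lkb1fl/fl and received Ad-Cre, an adenovirus carrying Cre, through the nose 8 weeks earlier. WTKL mice had Tmem173fl/fl bone marrow, and LYZKL mice had Tmem173fl/fl;Lyz2-Cre bone marrow, in which Cre is driven by the myeloid gene Lyz2, so that all donor marrow carried the floxed Tmem173 alleles. Tamoxifen is named among the treatments of WTKL but not of LYZKL, and each group has 1 library with no stated number of mice. T cells were sorted as CD4pos and CD8pos, so the myeloid barcodes are cells that passed a gate meant for T cells, and their shares are shares of what passed it.

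Chemokines are small secreted proteins that guide leukocytes through receptors on the cell surface. Ccl2 and Ccl7 bind Ccr2 and draw classical monocytes out of the marrow and into inflamed tissue. Mouse Ccl8 binds Ccr8, and Ccl17 and Ccl22 bind Ccr4, which type 2 helper, regulatory and skin- or lung-homing T cells carry. Ccl24 attracts eosinophils through Ccr3, and Cxcl13 attracts B cells and follicular helper T cells through Cxcr5.

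The members lie in few places of the mouse genome. Ccl2 (chr11:82035571-82037453), Ccl7 (chr11:82045712-82047525) and Ccl8 (chr11:82115185-82116799) stand on the plus strand of GRCm38 within 81.229 kb. Ccl22 (chr8:94745590-94751699) and Ccl17 (chr8:94810453-94812036) are 58.753 kb apart on the plus strand. Ccl24 (chr5:135569937-135573049, minus strand) and Cxcl13 (chr5:95956951-95961068, plus strand) are on chromosome 5, and Ccr4 (chr9:114490316-114504916, minus strand), Ccr8 (chr9:120092114-120094906, plus strand) and Ccr2 (chr9:124101950-124113557, plus strand) are on chromosome 9.

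The 250 bases before the RefSeq start are shown for Ccl17, Ccl8 and Cxcl13, the 3 with most UMIs in WTKL among the 5 ligands at least 1.5-fold lower in LYZKL over all macrophage-marked barcodes. RefSeq promoter entries were found for 7 of the 10 members, all but Ccl2, Ccl7 and Ccl24. Capitals mark matches to 6 motifs searched on both strands: TATAAA (held by 12.4% of 32851 promoter windows of this length), the kappaB form GGG, any 5 bases, CC (45.8%), the AP-1 form TGANTCA (6.75%), the interferon response core GAAA, any 2 bases, GAAA (2.98%), the GAS form TTCNNNGAA (7.02%) and the STAT6 form TTC, any 4 bases, GAA (5.85%). The build is GRCm38.p6 and all 3 windows are on the plus strand.
Ccl17, chr8:94810203-94810452: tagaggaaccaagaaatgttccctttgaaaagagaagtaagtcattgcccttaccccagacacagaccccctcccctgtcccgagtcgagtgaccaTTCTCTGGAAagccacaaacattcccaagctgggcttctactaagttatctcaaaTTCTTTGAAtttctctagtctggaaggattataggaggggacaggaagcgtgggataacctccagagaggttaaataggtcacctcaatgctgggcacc
Ccl8, chr11:82114935-82115184: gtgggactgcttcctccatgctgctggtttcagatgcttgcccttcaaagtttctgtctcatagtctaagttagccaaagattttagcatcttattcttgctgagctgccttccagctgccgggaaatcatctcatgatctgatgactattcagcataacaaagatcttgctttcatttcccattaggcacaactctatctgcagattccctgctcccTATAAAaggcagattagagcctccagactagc
Cxcl13, chr5:95956689-95956938: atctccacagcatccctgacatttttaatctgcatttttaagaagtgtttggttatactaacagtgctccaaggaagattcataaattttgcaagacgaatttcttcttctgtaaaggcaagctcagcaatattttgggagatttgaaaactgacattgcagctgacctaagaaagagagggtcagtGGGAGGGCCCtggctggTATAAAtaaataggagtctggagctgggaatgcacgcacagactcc
The Ccl17 window holds a STAT6-form match 154 bases and a GAS-form match 99 bases before the start. A TATAAA match stands 32 bases before the start of Ccl8 and 46 before that of Cxcl13, whose window also holds a kappaB-form match at 63. Neither TATAAA nor the kappaB form occurs in the Ccl17 window, and a match is a description of letters, not a bound site.

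The kept barcodes numbered 12003 in WTKL and 13451 in LYZKL, with medians of 4840 and 5327 UMIs, where the submitters state 6609 and 7202 cells, and 94 barcode sequences occurred in both. Macrophage- and monocyte-like barcodes (at least 5 of 8 macrophage markers and at most 2 of 10 T cell markers) numbered 350 in WTKL and 510 in LYZKL. A larger set, 464 and 488 barcodes, carried the macrophage markers together with at least 4 T cell markers. Their medians were 17350 and 16821 UMIs, against 11872 and 12153 in the macrophage gate and 4945.5 and 5674 in T cells, and a doublet score called at a preset rate marked 22.8% and 29.9% of them. Whether these macrophage barcodes with T markers are doublets, macrophages bound to T cells or macrophages that took up T cell RNA was not tested, so results for them are given beside those of the macrophage gate. Neutrophil-like barcodes (at least 5 of 10 neutrophil markers) numbered 1080 and 1202, and barcodes with 3 or 4 neutrophil markers 160 and 521; the latter are not named as a cell type because Ccl3, Sftpc and Hcar2 led their genes. The T gate held 8156 and 8739 barcodes.

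Tmem173, the gene targeted in LYZKL, was at 42.0 CPM (UMIs scaled to a class total of 1000000) in WTKL and 34.4 in LYZKL in the macrophage gate, at 19.2 and 2.96 in neutrophil-like barcodes, and at 22.8 and 46.7 in CD4 conventional T cells. The floxed exons are not given, and a 3' tag outside the deleted stretch checks nothing. No test between WTKL and LYZKL could be run, since each is a single library. Every interval below is a 95% interval (exact Poisson for counts, exact binomial for shares and for ratios of CPM, Katz for ratios of shares). Each holds counting error alone, leaving out how mice differ. Intervals of CPM and of its ratios also leave out how unevenly UMIs spread over barcodes.

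**Figure D1:**
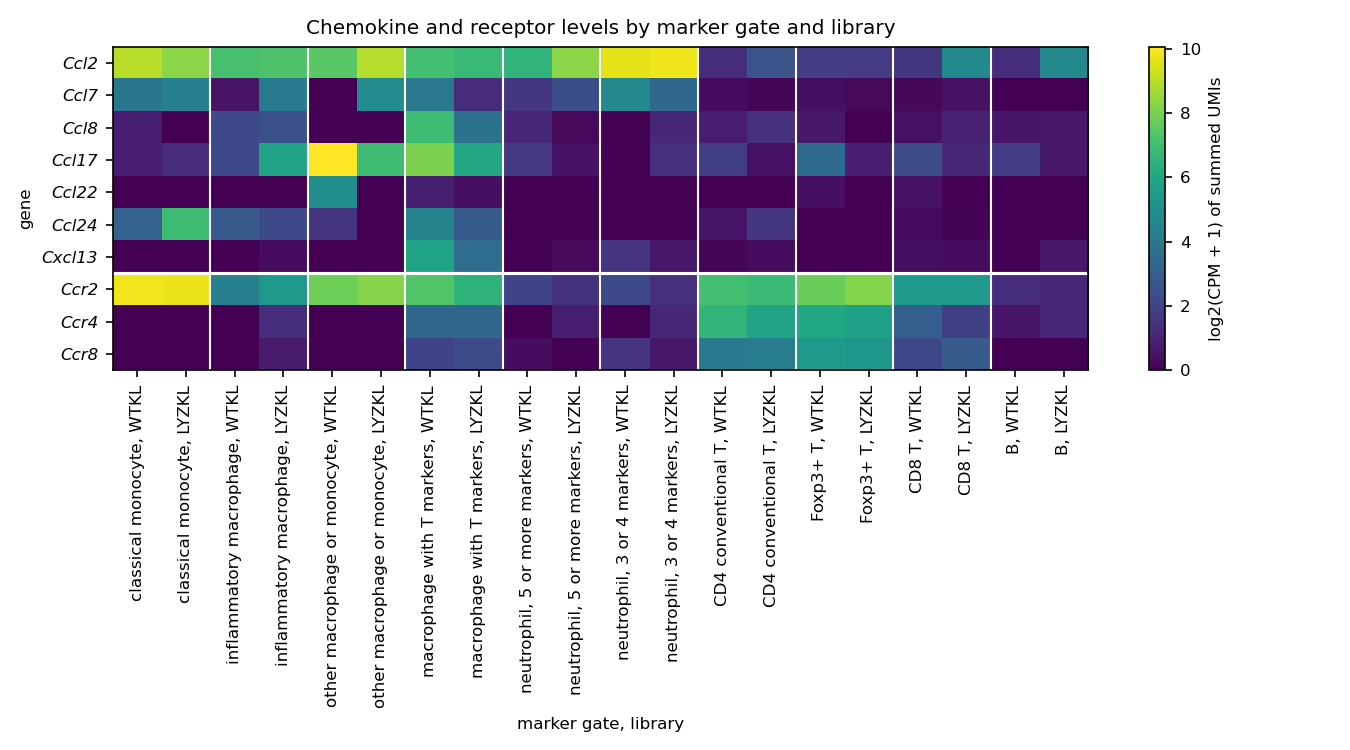
Heat map of log2(CPM + 1) of the 10 genes (rows) in 10 marker gates (columns, WTKL beside LYZKL), from UMIs summed per gate and library. Ccl2 is bright across all myeloid gates, Ccl8 and Cxcl13 are brightest in macrophage barcodes with T markers, and Ccr4 and Ccr8 are bright in CD4 and Foxp3+ T cells.

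Ccl2, the main attractant of classical monocytes, was the member ligand detected in most barcodes, 555 in WTKL and 1301 in LYZKL, and its sources differed between the libraries. Of its 3518 UMIs in WTKL, 30.8% lay in macrophage barcodes with T markers, 29.8% in the macrophage gate and 22.9% in neutrophil-marked barcodes without T markers. Of its 8781 UMIs in LYZKL, 10.8% lay in macrophage barcodes with T markers, 15.2% in the macrophage gate and 35.9% in neutrophil-marked barcodes. The barcodes in no gate held 9.24% of Ccl2 UMIs in WTKL and 24.6% in LYZKL.

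Within the macrophage gate, Ccl2 was at 244 CPM (229 to 259) in WTKL and 213 (202 to 225) in LYZKL, a log2 ratio of -0.20 (-0.31 to -0.08). It was detected in 127 of 350 barcodes (36.3%) and 167 of 510 (32.7%). Classical monocyte-like barcodes (at least 4 of 6 markers such as Ly6c2, Vcan and F13a1) had the highest level of the macrophage types in WTKL, 503 CPM (464 to 544), and 312 (272 to 356) in LYZKL, a log2 ratio of -0.69 (-0.92 to -0.47) with Ccl2 found in 74 of 111 and 38 of 62 barcodes. Inflammatory macrophage-like barcodes (at least 4 of Cfb, Saa3, Nos2, Arg1, Slc7a2 and Inhba) had 139 and 151 CPM, whose ratio does not differ from 1 beyond counting error (log2 0.13, -0.07 to 0.33). In each library 5 barcodes held 70.2% and 42.2% of these UMIs, and without them the log2 ratio was 1.06. The macrophage-gated barcodes of no named type had 177 and 486 CPM (log2 1.46, 1.12 to 1.81), with 5 barcodes holding 88.2% of these UMIs in WTKL and 64.8% in LYZKL. They are what the named types leave over and differed between the libraries. Their medians were 9511.5 UMIs and 6 macrophage markers in WTKL and 4993 UMIs and 5 markers in LYZKL. Macrophage barcodes with T markers had 131 and 109.6 CPM. So the monocyte-like and T-marked barcodes were lower in LYZKL and the macrophage-gated barcodes of no named type were higher. The direction for the whole gate is weak and depends on how the barcodes are weighted: the mean of per-cell CPM gives a log2 ratio of 0.08. The 1 cluster whose most common gate was the macrophage gate gives 0.12, but it holds 401 and 229 barcodes against 350 and 510 in the gate, and its most common type was classical monocyte-like.

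Neutrophil-like barcodes carried more Ccl2 in LYZKL: 93.2 CPM (83.9 to 103) in WTKL and 314 (299 to 330) in LYZKL, a log2 ratio of 1.75 (1.59 to 1.92). Ccl2 was detected in 63 of 1080 of these barcodes (5.83%) in WTKL and 189 of 1202 (15.7%) in LYZKL. After every barcode was thinned to 2000 UMIs, which left out 75 and 78 shallower ones, the shares were 4.58% and 12.7%. Without the 5 barcodes with most Ccl2 UMIs in each library the log2 ratio was 2.21. Neutrophil barcodes with T markers had 50.1 and 160.5 CPM, in the same direction.

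Barcodes with 3 or 4 neutrophil markers had the highest Ccl2 levels of any gate, 798 CPM (725 to 877) in WTKL and 896 (852 to 942) in LYZKL, with a log2 ratio of 0.17 (0.01 to 0.32) that did not hold its direction when classes were taken from clusters (-0.37). A Ccl2 UMI was found in 24 of 160 barcodes and in 190 of 521 (36.5%), and thinned to 2000 UMIs 13.6% and 34.1%. In WTKL 5 barcodes held 64.8% of the Ccl2 UMIs of this gate and in LYZKL 19.1%. These barcodes also made up 12.9% (WTKL) and 30.2% (LYZKL) of all neutrophil-marked barcodes (ratio 2.34, 1.99 to 2.75). Their summed stromal and epithelial markers stood at 1280.2 CPM in WTKL and 65.9 in LYZKL, with 3 of 8 at 0 in each, and the part of these cells in the Ccl2 level was not tested.

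T and B cells, which are not known as sources of Ccl2, give the values against which its shares are read; the part of free RNA and of mixed barcodes in them was not tested. A Ccl2 UMI was found in 1.12% of T barcodes (median 4945.5 UMIs) in WTKL and 2.92% (median 5674) in LYZKL, and in 0.569% and 2.63% of B barcodes (medians 3040 and 3407.5). CD8 T cells had 2.11 CPM in WTKL and 27.1 in LYZKL, CD4 conventional T cells 1.51 and 4.90, and Foxp3+ T cells 2.52 and 2.37. The shares in monocyte-like and neutrophil-like barcodes are above those of T and B barcodes in both libraries. The T and B values have no single level: they were higher in LYZKL in CD8, CD4 conventional and B barcodes, most of all in CD8, and did not differ beyond counting error in Foxp3+ barcodes (log2 -0.09, -1.50 to 1.40).

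Neutrophil-like barcodes with a Ccl2 UMI more often held Ccl3 and Ccl4 than those without one, but not Cxcl3. Ccl3, an attractant of monocytes and T cells, was detected in 81.0% of Ccl2-positive and 52.8% of Ccl2-negative neutrophil-like barcodes in WTKL, and in 80.4% and 58.1% in LYZKL. Ccl4, a close relative of Ccl3, was found in 71.4% and 43.8% in WTKL and in 69.8% and 57.1% in LYZKL. Cxcl3, a neutrophil attractant, was found in 17.5% and 17.6% in WTKL and in 13.2% and 15.2% in LYZKL. Median depths were 4057 and 3370 UMIs in WTKL and 4127 and 3856 in LYZKL, and the shares were not thinned to equal depth.

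**Figure D2:**
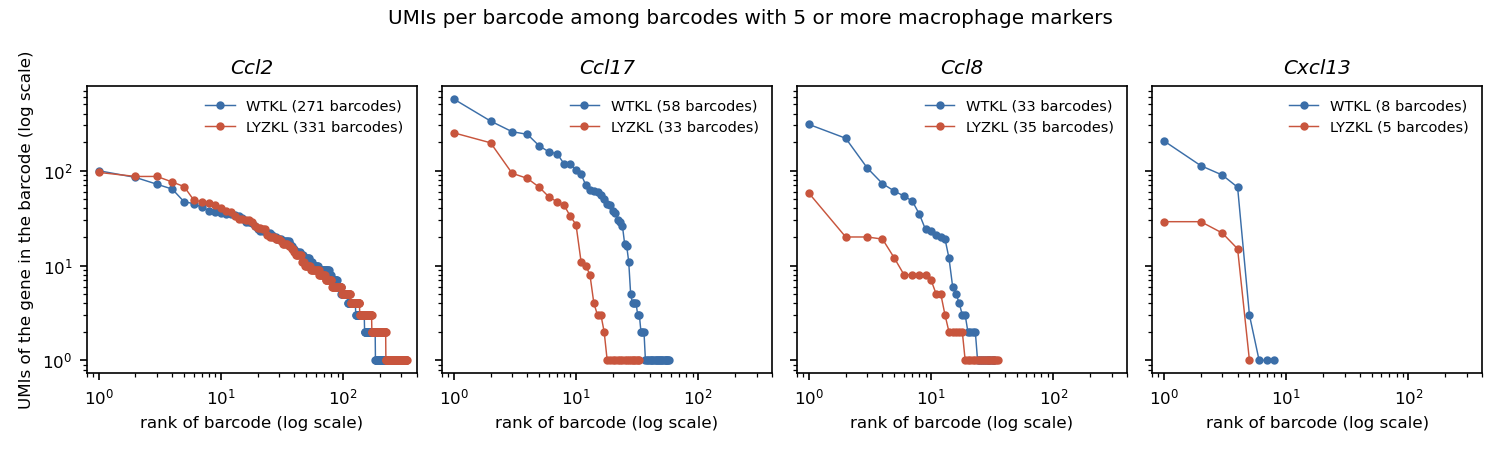
UMIs of Ccl2, Ccl17, Ccl8 and Cxcl13 (log scale) in each macrophage-marked barcode that held any, ordered by rank (log scale), with and without T markers. The Ccl2 curves of WTKL and LYZKL run close together, while the highest Ccl17, Ccl8 and Cxcl13 barcodes hold 570, 308 and 206 UMIs in WTKL and 251, 58 and 29 in LYZKL.

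Ccl7, which shares Ccr2 with Ccl2, was rare. It had 183 UMIs in 47 barcodes of WTKL and 201 in 36 of LYZKL, and 5 barcodes held 52.5% and 58.2% of them. In the macrophage gate it was at 4.65 CPM in WTKL (9 barcodes) and 17.8 in LYZKL (11 barcodes), and in macrophage barcodes with T markers at 15.2 (20 barcodes) and 1.39 (4 barcodes). The direction therefore depends on which barcodes are counted, and over both sets together the levels were 11.6 and 8.32 CPM. Where Ccl7 was found, Ccl2 was found too: in 23 of 29 Ccl7-positive macrophage-marked barcodes of WTKL and 15 of 15 of LYZKL, against 31.6% and 32.1% of the Ccl7-negative ones. The 3 highest Ccl7 barcodes of WTKL, with 34, 24 and 16 UMIs, each carried 7 of 8 C1q macrophage markers, and the highest of LYZKL, with 46, was an inflammatory macrophage-like barcode.

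Ccl8, the ligand of Ccr8 in the mouse, was found in about as many macrophage-marked barcodes in both libraries but with more UMIs per barcode in WTKL. Taken with and without T markers, 33 barcodes of WTKL held 1064 UMIs and 35 of LYZKL held 208, which gives 84.8 and 14.0 CPM and a log2 ratio of -2.60 (-2.82 to -2.39). The 3 highest barcodes had 308, 220 and 107 UMIs in WTKL, and the highest of LYZKL had 58. In WTKL 89.9% of all Ccl8 UMIs lay in macrophage barcodes with T markers (122 CPM against 12.5 in LYZKL), and in the macrophage gate the levels were 13.01 and 15.92 CPM, a ratio that does not differ from 1 beyond counting error (log2 0.29, -0.19 to 0.79). The lower Ccl8 of LYZKL therefore rests on barcodes with T markers. In LYZKL the barcode with the second highest Ccl8 count, 37 UMIs, sat in the T gate with 9 T cell, 3 macrophage and 6 C1q markers.

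Ccl8 went with C1q macrophage markers such as C1qa, Apoe, Mrc1 and Folr2. At least 4 of the 8 were detected in 27 of 33 Ccl8-positive macrophage-marked barcodes of WTKL (81.8%) and 30 of 35 of LYZKL (85.7%), against 33.4% and 29.2% of the Ccl8-negative ones. Their median depth was 11341 UMIs against 14624 in WTKL, and 15312 against 14447 in LYZKL. C1q macrophage-like barcodes had at least 4 of these 8 markers and at most 3 inflammatory and 3 monocyte markers. They were 13.3% of macrophage-marked barcodes in WTKL (108 of 814) and 6.31% in LYZKL (63 of 998), a ratio of 0.476 (0.354 to 0.640). The part of this share in the Ccl8 and Cxcl13 levels was not tested. None of the Ccl8-positive barcodes of either library held 3 or more markers of type 2 conventional or monocyte-derived dendritic cells. Of the Ccl8-negative ones only 4.87% in WTKL and 1.45% in LYZKL did, so so few positive barcodes cannot show a difference.

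Cxcl13, the B cell attractant, came from a handful of the same kind of barcode. It had 497 UMIs in WTKL and 115 in LYZKL, and 97.0% and 83.5% of them lay in macrophage-marked barcodes, nearly all with T markers. Barcodes with 206, 113, 90 and 67 UMIs made up most of WTKL, and barcodes with 29, 29, 22 and 15 most of LYZKL. All 8 Cxcl13-positive macrophage-marked barcodes of WTKL and 4 of 5 of LYZKL held at least 4 C1q markers, and 6 of 8 and 3 of 5 also held Ccl8, against 3.35% and 3.22% of the Cxcl13-negative ones. The ratio of 38.4 to 6.44 CPM (log2 -2.58, -2.91 to -2.26) thus rests on the 4 barcodes named in each library. Its receptor Cxcr5 was at 229 CPM in B barcodes of WTKL and 194 in LYZKL.

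Ccl17, a Ccr4 ligand that dendritic cells and some macrophages make, was lower in LYZKL in the macrophage gate, with 186 CPM (173 to 199) in WTKL and 61.4 (55.5 to 67.9) in LYZKL, a log2 ratio of -1.60 (-1.78 to -1.42). Only 16 and 15 barcodes held it, and 5 barcodes carried 89.1% and 92.0% of its UMIs. Without those 5 in each library the log2 ratio was -2.04. In macrophage barcodes with T markers it was at 270.2 and 65.7 CPM in 42 and 18 barcodes. Over both sets the share of barcodes with a Ccl17 UMI was 7.13% in WTKL (58 of 814) and 3.31% in LYZKL (33 of 998), their ratio being 0.464 (0.306 to 0.704), so both the number of positive barcodes and the UMIs in the highest ones were lower.

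The types that held Ccl17 differed between the libraries. Of the macrophage-gated barcodes, those of no named type had 1059.7 CPM in WTKL and 122 in LYZKL (log2 -3.12, -3.48 to -2.78), and their leading genes included Ear2, Car4 and Lpl. This leftover set differed between the libraries in depth and marker number, as given for Ccl2. The inflammatory macrophage-like barcodes had 3.67 CPM in WTKL and 57.2 in LYZKL, where 1 barcode held 197 of the 268 UMIs, but with the T-marked inflammatory barcodes included the log2 ratio of this type was -1.54. Markers of type 2 conventional or monocyte-derived dendritic cells (at least 3 of 7, such as Cd209a, Clec10a and Mgl2) were found in 24 of 58 Ccl17-positive barcodes of WTKL and 6 of 33 of LYZKL, against 1.85% and 0.829% of the Ccl17-negative ones, at median depths of 18651.5 against 14239.5 UMIs in WTKL and 19333 against 14418 in LYZKL. Classical monocyte markers went the other way: at least 4 of 6 were detected in 13.8% and 15.2% of Ccl17-positive and 49.7% and 37.7% of Ccl17-negative barcodes. Of all macrophage-marked barcodes, 38 of 814 in WTKL and 14 of 998 in LYZKL held at least 3 of the 7 dendritic cell markers. The part of this share in the Ccl17 level was not tested. T barcodes held a Ccl17 UMI in 1.07% of WTKL and 0.366% of LYZKL.

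Ccl22, the other Ccr4 ligand, was near absent, with 38 UMIs in 10 barcodes of WTKL and 5 UMIs in 3 barcodes of LYZKL. In the macrophage gate 16 UMIs in 2 barcodes of WTKL stand against 0 of 6283228 UMIs in LYZKL, which with the floor of 3 counts is at least 7.78-fold lower. Those 2 barcodes held 5 and 7 of 7 dendritic cell markers of the type 2 or monocyte-derived kind. A further 5 UMIs lay in a CD8-gated barcode with 9 of 9 markers of mature dendritic cells, the cells best known for making Ccl22. At most 2 T markers together with at least 3 mature dendritic cell markers were found in 9 barcodes of WTKL and 5 of LYZKL, so the level in mature dendritic cells cannot be measured here.

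Ccl24, the eosinophil attractant, was set by single barcodes. In WTKL 1 T-marked macrophage barcode held 151 of its 225 UMIs, and in LYZKL 1 classical monocyte-like barcode held 83. The macrophage gate had 5.57 CPM in WTKL (7 barcodes) and 16.6 in LYZKL (5 barcodes), and with the T-marked barcodes the levels were 16.2 and 10.6 CPM in 19 and 12 barcodes, the opposite order. Of these positive barcodes, 17 of 19 in WTKL and 8 of 12 in LYZKL also held Ccr2. CD4 conventional T cells gave 11 Ccl24 UMIs in 10 barcodes of WTKL and 55 in 16 barcodes of LYZKL, and the highest of the latter, with 11 UMIs, held 8 T and 0 macrophage markers.

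Counted over all 7 ligands, the macrophage gate does not show a common direction. Of 5 ligands with at least 20 UMIs there, Ccl7 and Ccl24 were at least 1.5-fold higher in LYZKL and Ccl17 at least 1.5-fold lower, where 5.87% and 7.25% of 10579 genes were that far apart. In macrophage barcodes with T markers, 5 of 6 measured ligands (Ccl7, Ccl8, Ccl17, Ccl24 and Cxcl13) were at least 1.5-fold lower in LYZKL and none higher, against 4.96% lower and 6.24% higher among 11956 genes. Over both sets, 5 of 7 were lower and none higher, against 5.64% and 5.17% of 12631 genes, with a median log2 ratio of -1.92 against -0.0082 over all genes. Of these 5, Ccl17 was found in 58 and 33 barcodes, Ccl8 in 33 and 35, Ccl24 in 19 and 12, Cxcl13 in 8 and 5 and Ccl22 in 3 and 2. In both counts the lower Ccl24 rests on 1 T-marked barcode of WTKL, which held 151 of its 225 UMIs. Ccl8 and Cxcl13 rest partly on the same barcodes, so they are not separate observations: 6 of 8 Cxcl13-positive barcodes of WTKL and 3 of 5 of LYZKL also held Ccl8. In neutrophil-like barcodes Ccl2 and Ccl7 were the 2 ligands measured, both at least 1.5-fold higher, against 6.96% of 9401 genes (10.1% were that far lower), with Ccl7 at 8 and 22 UMIs and an interval that includes no difference (log2 1.11, -0.12 to 2.48).

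**Figure D3:**
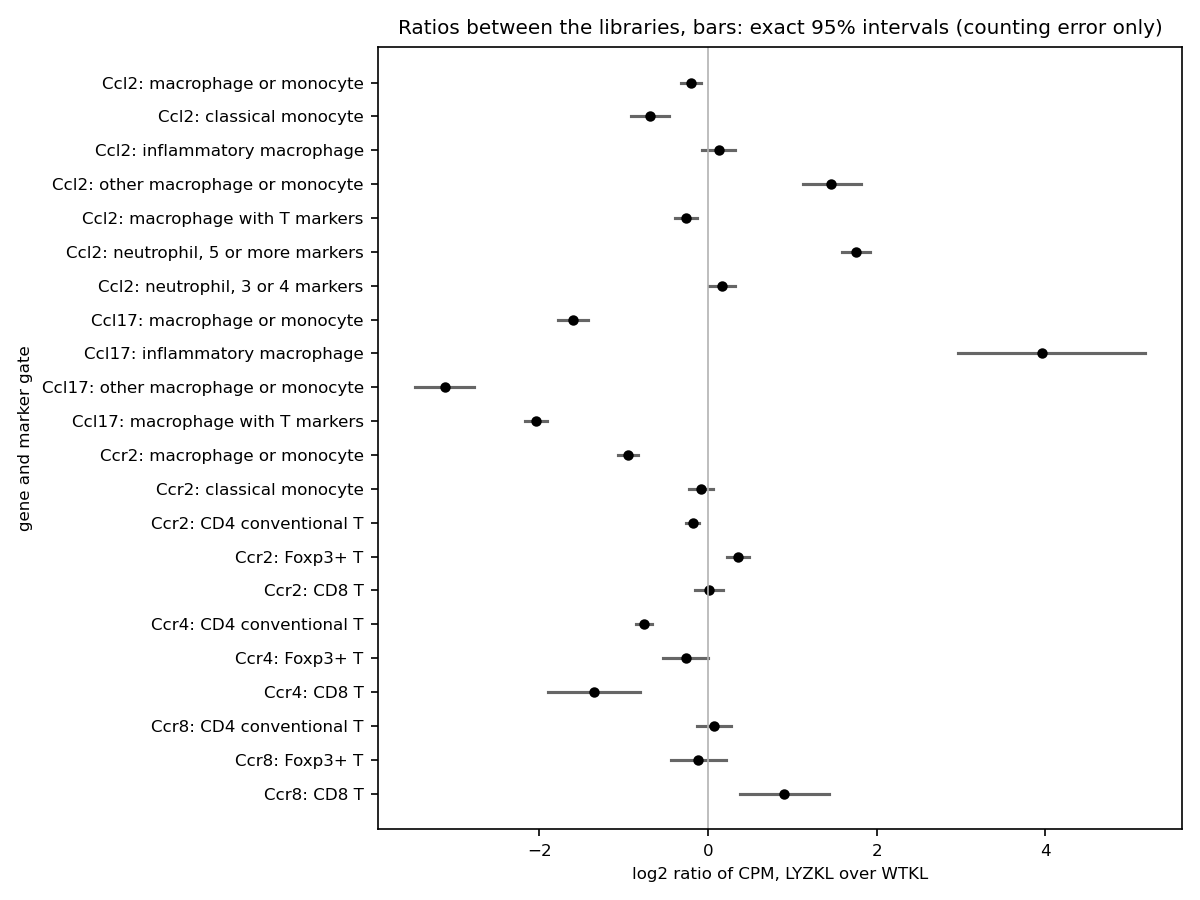
Log2 ratio of CPM, LYZKL over WTKL (points), with exact 95% intervals for counting error (bars), for Ccl2, Ccl17, Ccr2, Ccr4 and Ccr8 in the gates that carry them; the vertical line marks no difference. Ccl2 lies at -0.69 in classical monocyte-like and 1.75 in neutrophil-like barcodes, and Ccr4 lies below 0 in CD4 conventional and CD8 T cells.

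Of 15 other chemokines measured in the macrophage gate, 5 were at least 1.5-fold higher in LYZKL and none lower, where 5.87% and 7.25% of all genes were that far apart: Pf4 (platelet factor 4; 40.2 and 123 CPM), Cxcl3 (131 and 335) and Cxcl1 (94.8 and 158), which attract neutrophils through Cxcr2 in the case of the last 2, Ccl3 (512 and 783) and Ccl25 (4.18 and 6.68, from 18 and 42 UMIs, with a log2 interval of -0.15 to 1.56 that includes no difference). The median log2 ratio of the 15 was 0.36, against -0.03 over all genes of the gate. Inflammatory barcodes were 43.1% of the gate in WTKL and 65.3% in LYZKL. Within them the median of 14 was 0.08, against 0.05 over all genes. Pf4, Cxcl3 and Ccl25 stayed at least 1.5-fold higher there, but Ccl3 (751 and 711 CPM) and Cxcl1 (165 and 195) did not. The median was -0.13 against -0.02 in classical monocyte-like barcodes and 0.48 against 0.04 in those of no named type. The part of the type shares in the gate's values was not tested. Macrophage barcodes with T markers did not share the direction of the whole gate. Of 19 measured there 2 were higher and 2 lower, where 6.24% and 4.96% of all genes were that far apart. Their median was -0.17, and Cxcl3 (223 and 159 CPM) and Cxcl1 (92.1 and 74.2) had the opposite order. In neutrophil-like barcodes 3 of 13 were higher, among them Ccl4 (1883 and 3681 CPM) and Cxcl9 (41.4 and 78.3), and 3 lower, among them Cxcl3 (488 and 195). Of all genes there, 6.96% were that far higher and 10.1% that far lower. Of 12 genes that induce or modify the member chemokines, such as Irf4, Stat6, Csf2ra and Nfkb1, none was at least 1.5-fold higher in the macrophage gate and only Dpp4, a protease that trims chemokines, was lower (5.34 and 2.55 CPM from 23 and 16 UMIs).

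Ccr2, the receptor of Ccl2 and Ccl7, was lower in LYZKL over the macrophage gate, 326 CPM (309 to 343) in WTKL and 169 (159 to 179) in LYZKL (log2 -0.95, -1.06 to -0.83), and was detected in 43.1% and 25.7% of its barcodes. It was the 1 member receptor measured there. In the 1 cluster whose most common gate was the macrophage gate, with classical monocyte-like as its leading type, the log2 ratio was -0.02. Within classical monocyte-like barcodes it was at 923 CPM (870.0 to 977.6) in WTKL and 870.2 (803 to 941) in LYZKL, which do not differ beyond counting error (log2 -0.08, -0.23 to 0.06), and 107 of 111 and 58 of 62 barcodes held it. The macrophage gate itself was made up differently: classical monocyte-like barcodes were 31.7% of it in WTKL and 12.2% in LYZKL (ratio 0.383, 0.290 to 0.507), and inflammatory macrophage-like ones 43.1% and 65.3% (ratio 1.51, 1.32 to 1.73). These shares are of cells that passed a CD4 and CD8 sort. Inflammatory barcodes held little Ccr2, 19.8 CPM in WTKL and 42.3 in LYZKL, a direction opposite to that of the whole gate (log2 1.10). Barcodes of no named type were also higher in LYZKL (log2 0.42), and the C1q type had only 32 and 22 barcodes. The part of the type shares in the gate's Ccr2 level was not tested. In WTKL 37 and in LYZKL 93 of the macrophage-gated barcodes had exactly 4 inflammatory markers, the least that the inflammatory type allows, and 37 and 43 had 3.

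**Figure D4:**
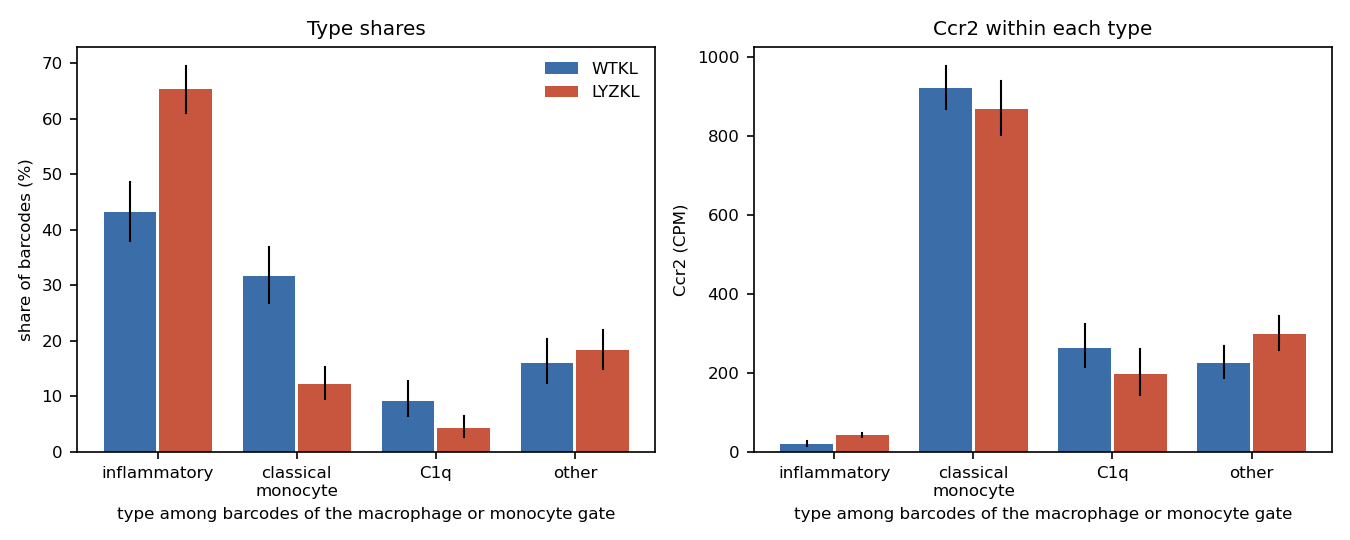
Left, share of each type among barcodes of the macrophage gate; right, Ccr2 in CPM within each type; bars are WTKL and LYZKL, and lines are exact 95% intervals for counting error. Classical monocyte-like barcodes are 31.7% of the gate in WTKL and 12.2% in LYZKL, while their Ccr2 is at 923 and 870.2 CPM.

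Other receptors of monocytes differed too. Cx3cr1, the fractalkine receptor of monocytes and macrophages, was at 79.6 CPM in WTKL and 29.4 in LYZKL in classical monocyte-like barcodes, and was the 1 receptor of 5 measured there that was at least 1.5-fold apart, where 10.0% of 7050 genes were that far lower and 6.50% higher. Among macrophage-marked barcodes, Ccr2 was found in 62.0% of those with a Ccl2 UMI and 35.7% of those without in WTKL, and in 39.0% and 24.1% in LYZKL, so ligand and receptor were often in the same barcode. Median depths of the compared sets were between 14017 and 14849 UMIs.

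T cells carried Ccr2 in every class, most of all Foxp3+ cells. Foxp3+ T barcodes had 224 CPM (208 to 241) in WTKL and 287 (272 to 302) in LYZKL (log2 0.36, 0.23 to 0.49). A Ccr2 UMI was found in 44.2% of 523 and 54.4% of 620 barcodes, and after thinning to 2000 UMIs in 27.7% and 33.0%. Effector-type Foxp3+ cells (at least 4 of Il1rl1, Areg, Klrg1, Gata3, Il10, Tnfrsf9 and Icos) had 240.4 and 342 CPM, the resting ones 60.8 and 97.0, and the rest 268 and 285. The effector-type share of Foxp3+ barcodes was 43.2% in WTKL and 47.1% in LYZKL. CD4 conventional T cells had 129.9 and 115 CPM (log2 -0.18, -0.26 to -0.11), the opposite direction, with 198 and 149.6 in their Th17-type part and 139 and 138 in their Th1-type part. CD8 T cells had 40.9 and 41.1 CPM, which do not differ beyond counting error. B barcodes, which lack the receptor, held a Ccr2 UMI in 0.569% and 0.526%.

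Ccr4, the receptor of Ccl17 and Ccl22, was lower in LYZKL in CD4 conventional T cells, 97.0 CPM (92.9 to 101) in WTKL and 57.1 (54.3 to 60.1) in LYZKL, a log2 ratio of -0.76 (-0.86 to -0.67). It was the 1 of the 3 member receptors at least 1.5-fold apart there, where 7.75% of 13638 genes were that far lower and 6.27% that far higher. The shares of barcodes with a UMI were 30.8% of 3879 and 26.0% of 3667 at unequal depth (medians 4904 and 6344 UMIs), and 15.03% and 9.78% after thinning to 2000 UMIs, which left out 61 and 38 barcodes. The lower level was found in the Th17-type cells (131 and 73.1 CPM), in the Th1-type cells (56.2 and 24.3) and in the CD4 cells of no named type (117 and 70.8), while resting CD4 cells had 41.3 and 37.5 CPM, which do not differ beyond counting error (log2 -0.14, -0.42 to 0.14). The Th1-type cells, which hold less Ccr4, were 11.0% of CD4 conventional barcodes in WTKL and 19.0% in LYZKL (ratio 1.73, 1.55 to 1.93). Foxp3+ T cells held 64.1 and 53.3 CPM (log2 -0.27), and the interval of the ratio, -0.53 to 0.0035, includes no difference. CD8 T cells were low, at 7.01 and 2.76 CPM, and B barcodes held a Ccr4 UMI in 0.19% and 0.526%.

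Ccr8, the receptor of Ccl8, was highest in effector-type Foxp3+ cells, at 58.1 CPM (47.0 to 71.0) in WTKL and 55.6 (47.2 to 65.1) in LYZKL. All Foxp3+ T barcodes had 41.6 and 38.5 CPM, and the interval of their log2 ratio, -0.44 to 0.21, includes no difference and excludes one of 1.5-fold. None of the 3 receptors was that far apart in Foxp3+ barcodes, where 7.53% of 10737 genes were lower and 6.13% higher. Ccr8 in CD4 conventional T cells likewise did not differ beyond counting error, with 16.99 and 17.84 CPM (log2 0.07, -0.13 to 0.27). CD8 T cells were lower throughout, at 3.47 CPM in WTKL and 6.48 in LYZKL (log2 0.90, 0.38 to 1.44), from 46 and 101 UMIs. In that class Ccr8 was the 1 member receptor at least 1.5-fold higher and Ccr4 the 1 at least 1.5-fold lower, where 12.9% and 5.19% of genes were that far apart. No Ccr8 UMI was found in 527 and 380 B barcodes, which with the floor of 3 counts allows shares of up to 0.569% and 0.789% of barcodes with a UMI.

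**Figure D5:**
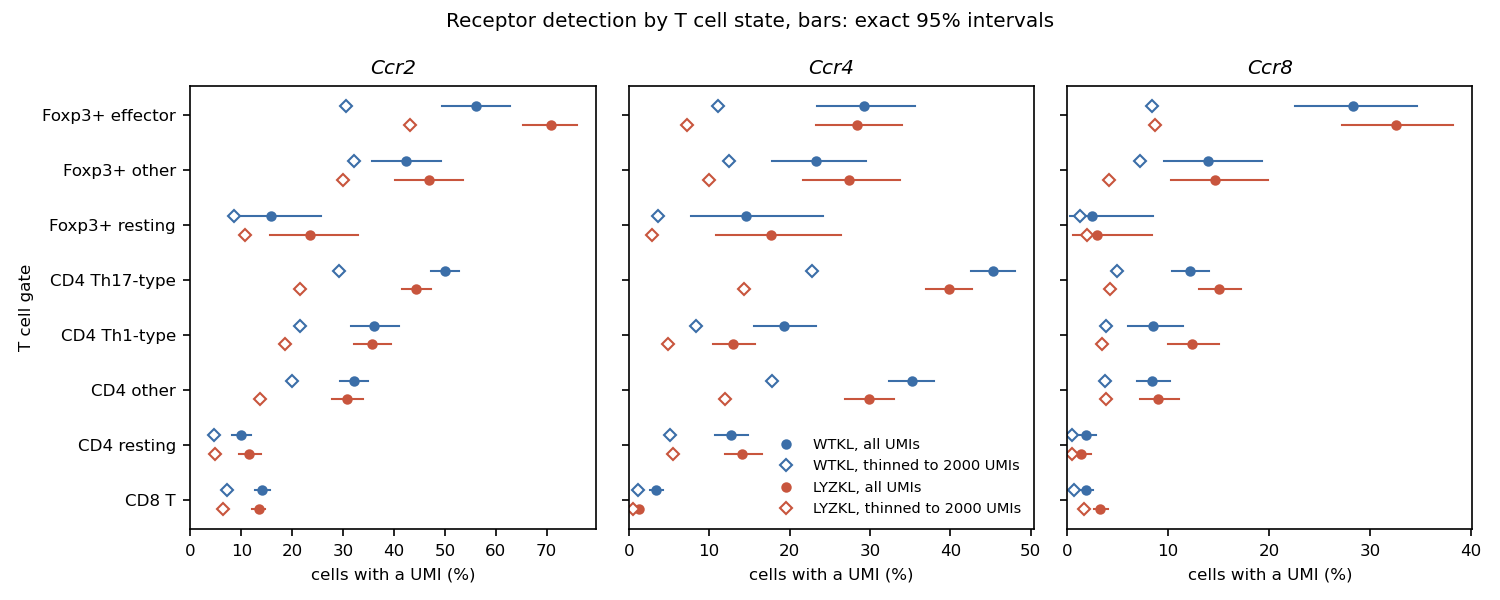
Share of barcodes with a UMI of Ccr2, Ccr4 or Ccr8 by T cell gate; filled points use all UMIs with exact 95% intervals for counting error, and open diamonds are barcodes thinned to 2000 UMIs. With all UMIs, Ccr2 in effector-type Foxp3+ barcodes is at 56.2% in WTKL and 70.9% in LYZKL, at unequal median depths of 5450.5 and 7516.5 UMIs. The thinned Ccr4 shares of Th17-type cells are 22.8% and 14.3%.

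The receptors overlapped within cells. In Foxp3+ barcodes Ccr4 was found in 34.6% of those with Ccr2 and 16.4% of those without in WTKL, and in 35.6% and 15.2% in LYZKL. Ccr8 was found in 26.8% of Ccr2-positive and 11.6% of Ccr2-negative Foxp3+ barcodes in WTKL and in 23.1% and 18.7% in LYZKL. In CD4 conventional barcodes Ccr4 was found in 40.5% and 26.1% in WTKL and in 36.8% and 21.1% in LYZKL by the same split. These shares were not thinned, so deeper barcodes count as positive for both genes more often.

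Across 27 sums, 1 per gate and library with at least 50 barcodes, the likeness of each member to 11597 other genes was measured by Pearson's r of log2(CPM + 1), as a description over sums that share their library. Ccl2 was most like Atf3 (0.97), a stress-induced transcription factor, then Adssl1 (0.96) and Ifi207 (0.95). Ccl17 was most like Dcstamp (0.86), Mgl2 (0.83) and Slamf9 (0.83), and Ccl22 most like Cd209a (0.79), Gmpr (0.79) and Kcnip4 (0.74), where Mgl2 and Cd209a are lectins of dendritic cells. Ccl8 and Cxcl13 were alike (0.92), and both had Cadm1 and Olfml3 among their 3 nearest genes. Ccl7 was nearest to Tns4 (0.80) and Ccl24 to Hacd1 (0.76). Ccr2 was nearest to Ywhab (0.95), S100a4 (0.94) and Hspa8 (0.94). The genes nearest to Ccr4 included Sgip1 (0.98) and Tnfrsf25 (0.96). Ccr8 was nearest to Chst2 (0.98), Tnfrsf4 (0.97), a costimulatory receptor of regulatory T cells, and Arnt2 (0.97), and its r with Ccr4 was 0.94.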

How the data were processed

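The members and the marker and gene lists were chosen with earlier results of these data known, and gate thresholds after marker numbers had been seen. The deposited matrices hold raw UMI counts per gene and barcode, made by the authors with Cell Ranger 6.1.2 and mm10, per the submitters' processing notes. Kept barcodes had at least 500 genes and at most 10% mitochondrially coded UMIs, and held 76991838 UMIs in WTKL and 93408198 in LYZKL. A barcode entered a gate by its number of detected markers, and Foxp3+, CD4 and CD8 T cells were told apart by UMIs of Foxp3, Cd4, Cd8a and Cd8b1. T cell types needed 3 of 7 Th17, 2 of 5 Th1 or 4 of 7 resting markers. Counts were summed per gate and library and divided by the gate's total UMIs (CPM). Classes with under 50 barcodes in a library are given as values only.

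With 1 library per group no test was run. Features needed 20 UMIs over both libraries, and a feature was called apart at 1.5-fold. Named genes are all 10 members, and of the other listed chemokines and receptors those at least 1.5-fold apart. The limit set was 4 per direction, but all 5 chemokines that were higher in the macrophage gate are named. Nearest genes were fixed for the ligands, and those of the receptors were added later. Some genes that these rules name are not reported here. Of the dendritic cells planned for the sum, too few were found for a gate of their own. Barcodes with dendritic cell markers were not removed from the macrophage gate, so its Ccl17 and Ccl22 values include some of them. Scrublet's own threshold marked 0 barcodes in WTKL and 435 in LYZKL, so doublets were not removed; removal of the 1153 and 1447 highest scores was an alternative. The ratio code was checked on simulated counts. Python 3.11.15, scanpy 1.11.5, scipy 1.17.1, leidenalg 0.10.2 and edgeR 4.0.16 (TMM factors only) were used. Other alternatives were detected-gene and mitochondrial limits, marker numbers, mixed barcodes, scaling, mean per-cell CPM and Leiden clusters.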

Additional observations from a re-analysis of the deposited data

Results flagged for a closer look

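Ccl2 differed in opposite directions in 2 myeloid types under the same comparison, with a log2 ratio of LYZKL over WTKL of 1.75 in neutrophil-like barcodes and -0.69 in classical monocyte-like barcodes. The difference between the types was not tested, since each group has 1 library. Leaving out the 5 barcodes with most Ccl2 UMIs in each library gave 2.21 in neutrophil-like barcodes.

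Ccl2 was also found in barcodes that entered no gate and carried few T or B cell markers, a set for which no level is compared above. Their level was 65.7 CPM in WTKL and 632 in LYZKL, a log2 ratio of 3.27 (2.97 to 3.58), with a Ccl2 UMI in 31 of 359 and 187 of 739 barcodes. The positive ones held medians of 3 of 8 macrophage and 2 of 10 neutrophil markers in both libraries, so their cell type is not given here.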

How the results depend on the processing

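Of 115 alternatives over the 10 main values, 102 stayed within the counting interval of the main value, 11 moved out of it and 2 reversed it. Of 242 over the 21 other values, 205 stayed within it, 29 moved out and 8 reversed it. A reversal was counted only where that interval excludes no difference, so a value within it can have the other sign. Removal of doublet scores, either mitochondrial limit, the lower gene minimum, TMM scaling and scaling without ribosomal and mitochondrial genes moved or reversed none of these values. All values below are log2 ratios unless said otherwise, and the cause of each change was not tested. With 1 more marker required, Ccl2 gave -0.40 and Ccl17 -0.98 in the macrophage gate, and Ccl2 gave 1.54 in neutrophil-like barcodes. With Leiden clusters, Ccl2 gave 0.12, Ccl17 -2.01 and Ccr2 -0.0156 in the 1 cluster whose most common gate was the macrophage gate (most often monocyte-like), Ccr2 gave 0.505 in Foxp3+ T cells, Ccl7 -0.17 in macrophages and Ccl2 -0.37 in barcodes with 3 or 4 neutrophil markers. The mean of per-cell CPM gave 0.0778 for Ccl2 in the macrophage gate. With barcodes of 2 lineages kept in the lineage with more markers, Ccl17 gave -2.14, Ccl7 -0.33 and Ccl24 -0.65 in macrophages, and Ccl17 -2.07 in inflammatory ones. The next 2 alternatives were chosen after seeing the data. With T-marked macrophage barcodes included, Ccl17 gave -1.92, Ccr2 -0.79, Ccl7 -0.47 and Ccl24 -0.61, and Ccl17 -1.54 in inflammatory ones. Without the 5 barcodes with most UMIs, Ccl17 gave -2.04 in the macrophage gate and Ccl2 2.21 in neutrophil-like barcodes. The number of genes at least 1.5-fold apart was 1388 in the macrophage gate, 1601 in neutrophil-like barcodes, 1912 in CD4 conventional and 1467 in Foxp3+ T cells; with at least 100 UMIs it was 427, 463, 822 and 460, and at 2-fold 437, 510, 651 and 423. Myeloid subtypes and their shares got no value from clusters, since the macrophage gate was the most common gate in 1 cluster alone. No paired analysis was possible because each group has 1 library. The number of positive barcodes, 58 and 33 for Ccl17 and fewer for Cxcl13, limits those ligands.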

Other observations

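Ccl1, the other mouse ligand of Ccr8, is no member and is made by T cells in these libraries. CD4 conventional T cells held it at 8.13 CPM in 42 barcodes of WTKL and 41.3 CPM in 130 barcodes of LYZKL, with 16.4 and 176 CPM in their Th1-type part. CD8 T cells had 29.6 and 87.2 CPM in 34 and 133 barcodes, with 5 barcodes holding 85.8% and 45.6% of the UMIs. Foxp3+ T cells had 3 UMIs in 3 barcodes of WTKL and 423 in 10 barcodes of LYZKL, of which 5 barcodes held 98.8%.

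Cxcr6, a receptor of tissue-resident T cells, was at 117 CPM in WTKL and 66.9 in LYZKL in Foxp3+ T cells and at 152 and 342 in CD8 T cells. Ccr7, the receptor of resting and lymph node-homing T cells, was at 119.5 and 62.0 CPM in CD8 T cells.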
